A study of Macaca fascicularis with 2 samples.

Results

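FCER1G, TYROBP, LAT2 and FGR encode 2 adaptor chains, 1 adaptor scaffold and 1 kinase of the immunoreceptor tyrosine-based activation motif (ITAM) pathway. The 4 genes were taken by symbol from the 29324 genes of the count table, and they were chosen by their measured levels: earlier results of these same data had shown them to be high in cells with little T cell receptor RNA. Their levels by T cell receptor RNA and by antibody tag are therefore given as a description, without a test. All 4 had UMIs (unique molecular identifiers, each a counted RNA molecule) in the kept cells.

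The cells were T cells positive for both CD4 and CD8 (double-positive, DP) from the blood of 1 untreated cynomolgus monkey, aged 10 years. Mononuclear cells were enriched with CD4 microbeads and then with CD8 microbeads, so cells were kept by their coreceptors and not by a T cell receptor. The same cells gave a 5′ gene expression library and a library of antibody tags for CD4 and CD8, and they fell into 4 compartments by a CD4 tag limit of 144 UMIs and a CD8 tag limit of 419 UMIs. With 1 animal and 1 library pair there was no replicate, so every interval below covers counting error only and no p-value is given.

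Receptors such as activating NK receptors and Fc receptors have no signalling motif of their own and pair with small membrane chains. FCER1G encodes the Fc receptor gamma chain and TYROBP encodes DAP12, and both carry an ITAM that Src-family kinases phosphorylate. The phosphorylated motif recruits SYK or ZAP70, which phosphorylate scaffolds such as LAT and its relative LAT2 (NTAL). The conventional T cell receptor runs the same relay through the CD3 chains and CD247, with LCK as the kinase, ZAP70 as the recruited kinase and LAT as the scaffold. FGR is a Src-family kinase best known in monocytes, granulocytes and NK cells.

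Of 8953 barcodes, 8830 cells passed the limits on genes and mitochondrial RNA, with a median of 3145 gene UMIs and 1127 genes per cell. All 8830 cells had UMIs of both tags, with medians of 418 for CD4 and 298 for CD8. Not every cell had the RNA of the labelled cell type: 235 cells had 0 or 1 UMI summed over CD3D, CD3E, CD3G and TRAC and are called CD3-poor, whereas 8151 cells had 5 or more and are called CD3-rich. Of the 235 CD3-poor cells, 115 were in a B-like cluster, 23 in an innate-like cluster and 13 in a monocyte-like cluster. The other 84 were shallow, with a median of 938.5 UMIs. Doublets were not removed, since the caller marked 0 cells, which does not show that none were present.

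The 4 genes were rare and concentrated in few cells. FCER1G (ENSMFAG00000043727) had 788 UMIs in 80 cells, and its top 50 cells held 87.8% of them. TYROBP (ENSMFAG00000039856) had 1268 UMIs in 426 cells, but 254 of those cells had exactly 1 UMI. LAT2 (ENSMFAG00000028880) had 568 UMIs in 243 cells. FGR (ENSMFAG00000037860) had 237 UMIs in 99 cells, with 78.1% of them in the top 50 cells. FCER1G and FGR thus lay in a small set of cells, whereas TYROBP had such a set and a thin spread of single molecules over many other cells. The highest count in 1 cell was 54 for FCER1G, 33 for TYROBP, 19 for FGR and 12 for LAT2. In RefSeq's order of genes (assembly T2T-MFA8v1.1, not the build of the counts), TYROBP lies between HCST, which encodes another receptor adaptor, and LRFN3.

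The first question was how the genes followed T cell receptor RNA. All 4 were highest in CD3-poor cells and fell steeply with the first few T cell receptor molecules. As CPM, the UMIs of a gene per 1000000 gene UMIs of a group, FCER1G was at 563 in cells with 0 to 1, 99.1 with 2 to 4, 11.6 with 5 to 9, 5.19 with 10 to 19 and 1.63 with 20 or more CD3 and TRAC UMIs. TYROBP, in the same order, was at 490.0, 113, 30.1, 23.7 and 16.1. LAT2 was at 372, 38.5, 6.69, 6.17 and 8.87, and FGR at 161, 17.4, 2.23, 2.1 and 4.71. FCER1G and TYROBP were lower in each step than in the one before, whereas LAT2 and FGR were no lower in the last bin than in the 2 before it.

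**Figure D1:**
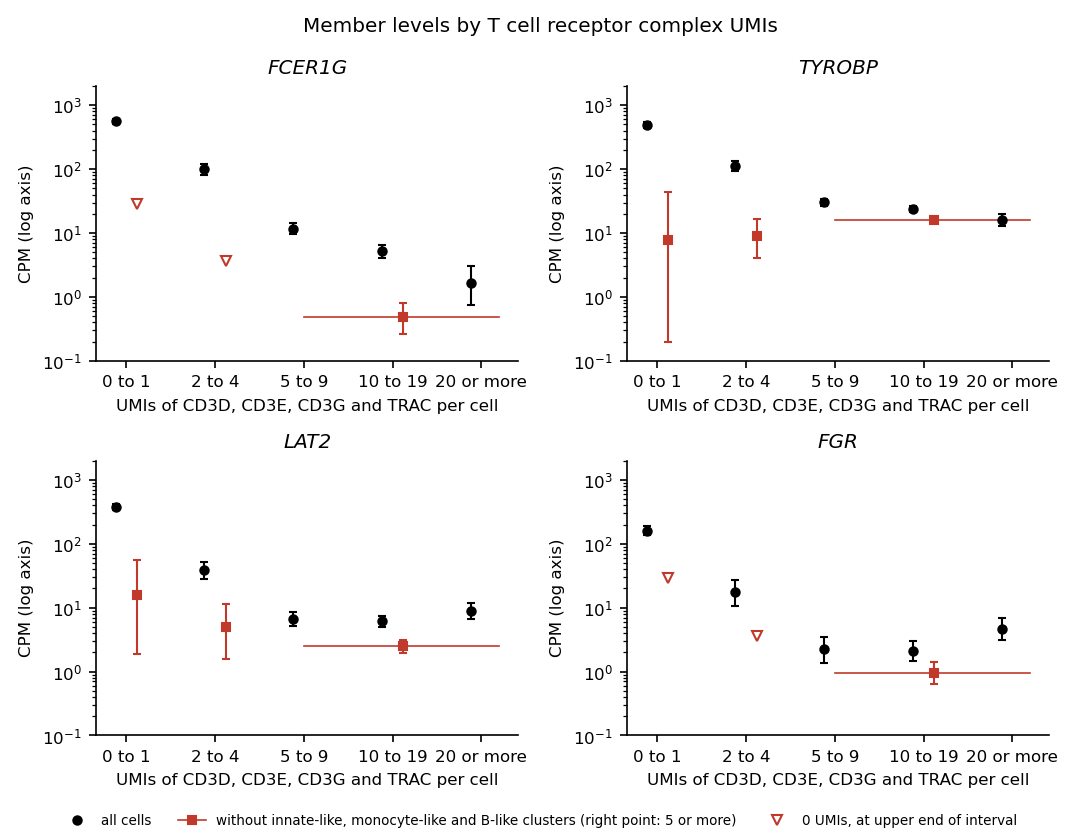
Level of each gene (CPM of summed UMIs, log axis) in 5 bins of cells by UMIs of CD3D, CD3E, CD3G and TRAC, with exact 95% Poisson intervals. Black points are all cells and red points are cells outside the innate-like, monocyte-like and B-like clusters, with open triangles at the upper limit where no UMI was counted. The black points start at 161 to 563 CPM and drop steeply, whereas the red points lie far below them in the first bin.

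Between CD3-poor and CD3-rich cells, FCER1G differed by a log2 ratio of 6.44 (95% counting interval 6.20 to 6.69), or 87.1-fold. The ratio was 5.94 for FGR (5.53 to 6.36), 5.77 for LAT2 (5.51 to 6.03) and 4.34 for TYROBP (4.16 to 4.51). In CD3-rich cells, TYROBP was at 24.2, LAT2 at 6.83, FCER1G at 6.46 and FGR at 2.62 CPM. Over all genes with 50 or more UMIs in both groups together, 8.72% were at least 2-fold higher in CD3-poor cells and 5.27% at least 2-fold lower. All 4 members were among the higher, as the choice of the genes implied.

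The differences were also seen at an equal depth per cell. After each cell was thinned to 2200 UMIs, which left out 754 shallower cells, 22.2% of CD3-poor cells and 0.327% of CD3-rich cells had an FCER1G UMI. For LAT2 the shares were 54.3% and 0.72%, for TYROBP 25.9% and 3.21%, and for FGR 19.1% and 0.34%. Without thinning, the CD3-rich shares were 0.38% for FCER1G, 1.28% for LAT2, 4.39% for TYROBP and 0.564% for FGR. LAT2 thus reached the largest share of CD3-poor cells.

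Markers of other cells moved with the same split. The 8 B cell markers, all above 0, summed to 4246 CPM in CD3-poor cells and 89.3 in CD3-rich cells. The 10 monocyte markers summed to 2348 and 36.2 CPM, and the 6 measured NK markers to 125 and 19.5. Erythroid markers (HBB and ALAS2) summed to 5186 CPM in CD3-poor cells, whereas mast cell, dendritic and platelet markers were at 1.15 CPM or less there. Without the B-like and monocyte-like clusters the log2 ratio of FCER1G rose to 7.64 and that of TYROBP to 5.45, with 5.63 for LAT2 and 6.14 for FGR. In the 84 CD3-poor cells outside those 2 clusters and the innate-like one, FCER1G and FGR had 0 UMIs, TYROBP 1 and LAT2 2.

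Clusters separated the carriers. Named by markers, with the 4 genes kept out of the genes used for clustering, the 16 clusters gave naive-like (5229 cells), CD4 CTL-like (850), CD8 CTL-like (433), Treg-like (412), Th17-like (346), Eomes+ Tr1-like (265), B-like (162), innate-like (54), cycling-like (46) and monocyte-like (19) classes. CTL stands for cytotoxic T lymphocyte, Treg for regulatory T cell and Tr1 for type 1 regulatory T cell. Another 3 clusters stayed unnamed. In the innate-like cluster, 6 of 6 innate markers and 5 of 6 measured NK markers reached the naming limit. Both lists hold KLRC1 and KIR2DL4. The name innate-like thus does not set this cluster apart from NK cells.

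FCER1G was almost confined to the innate-like cluster, with 48.6% of its UMIs, and the monocyte-like cluster, with 44.2%. Over the 54 innate-like cells the lowest, median and highest FCER1G counts were 0, 7 and 22 UMIs, and 51 cells had at least 1. Over the 19 monocyte-like cells they were 1, 14 and 54, so no monocyte-like cell lacked it. The levels were 1481 CPM (1337 to 1637) and 2754 CPM (2472 to 3059), and the log2 ratio of monocyte-like to innate-like cells was 0.89 (0.68 to 1.11). The B-like cluster followed at 42.9 CPM, all of it from 4 of 162 cells. In CD8 CTL-like cells, which share the cytotoxic genes of the innate-like cells, FCER1G had 0 UMIs, and in naive-like cells it had 3, or 0.188 CPM.

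TYROBP was the 1 member whose top class was the innate-like one. Its lowest, median and highest counts were 0, 9 and 33 UMIs in innate-like cells and 0, 9 and 26 in monocyte-like cells. The levels were 1980.4 CPM (1813 to 2159.6) and 1425 CPM, a log2 ratio of 0.48 (0.23 to 0.73). B-like cells were at 99.8 CPM, with TYROBP in 20 of 162 cells. TYROBP also had 324 UMIs in 249 naive-like cells, 191 of which had exactly 1, for 20.3 CPM and 25.6% of all its UMIs. The lowest TYROBP level among naive-like clusters was 1.52 CPM, in cluster 11, against 21.4, 21.2 and 20.2 in the other 3. Treg-like cells were at 6.2, CD8 CTL-like cells at 7.93, Th17-like cells at 9.05, CD4 CTL-like cells at 13.3 and Eomes+ Tr1-like cells at 15.5 CPM.

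This low TYROBP level did not have FCER1G beside it. Of the UMIs of both adaptors, FCER1G made up 65.9% in monocyte-like cells, 42.8% in innate-like cells (39.5 to 46.1, exact Clopper-Pearson) and 30.1% in B-like cells, but 0.917% in naive-like cells (0.19 to 2.66). The naive-like cells had 1 UMI of LYZ and none of MS4A1 or NCR1, which are 1 gene each of the monocyte, B cell and NK marker lists. These genes do not stand for their whole lists, whose other genes are not reported here for naive-like cells. In a wider group of cells, other genes of the lists were not all so low. In CD3-rich cells with a high CD4 tag and a low CD8 tag, CD79A had 901 UMIs, CST3 297 and CD14 48. That group, not only naive-like, also had 48 UMIs of LYZ and 151 of MS4A1, but 1 each of S100A8 and S100A9. Of the naive-like cells with a UMI of the neighbouring gene HCST, 4.98% of 1527 had a TYROBP UMI, against 4.67% of the 3702 without one, at 20.2 and 20.3 CPM. The part of free RNA in the TYROBP level of naive-like cells was not tested.

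LAT2 departed from the label of an innate gene. Its top class was the B-like one, with 383 CPM (346 to 423), 67.6% of its UMIs and 133 of 162 cells. Innate-like cells were at 317 CPM (252 to 394), which was not distinguishable from B-like cells, with a log2 ratio of 0.27 (-0.08 to 0.63) of B-like to innate-like cells. Monocyte-like cells followed at 174 CPM. The lowest, median and highest counts were 0, 2 and 12 UMIs in B-like, 0, 1 and 5 in innate-like and 0, 1 and 4 in monocyte-like cells, so the per-cell counts of the 3 classes overlapped. LAT2 was at 0.438 CPM in naive-like cells and 0.467 in CD8 CTL-like cells. Next came the cycling-like cluster at 18.2 CPM (7 UMIs in 2 cells), unnamed cluster 9 at 13.8 CPM, which had markers of both Th2 and Th17 cells, and unnamed cluster 4 at 12.1 CPM, where 26 cells held 37 UMIs. These 3 were not distinguishable from each other in order, with log2 ratios to the next of 0.40 (-1.15 to 1.80) and 0.19 (-0.81 to 1.11). Unnamed cluster 4 had markers of Treg and Tfh (follicular helper) cells.

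FGR was highest in monocyte-like cells, with 776 CPM and a lowest, median and highest count of 0, 3 and 19 UMIs. Innate-like cells were at 220.5 CPM (167 to 286), with counts of 0, 1 and 3 UMIs and at least 1 UMI in 36 of 54 cells. The log2 ratio of monocyte-like to innate-like cells was 1.81 (1.33 to 2.31). B-like cells were at 53.9 CPM, in 25 cells. Of the T cell classes, CD8 CTL-like cells had 17 FGR UMIs in 13 cells, or 7.93 CPM, and held 7.17% of all FGR UMIs. CD4 CTL-like cells had none, with an interval that reached up to 1.17 CPM. The log2 ratio of B-like to CD8 CTL-like cells was 2.76 (1.95 to 3.64).

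**Figure D2:**
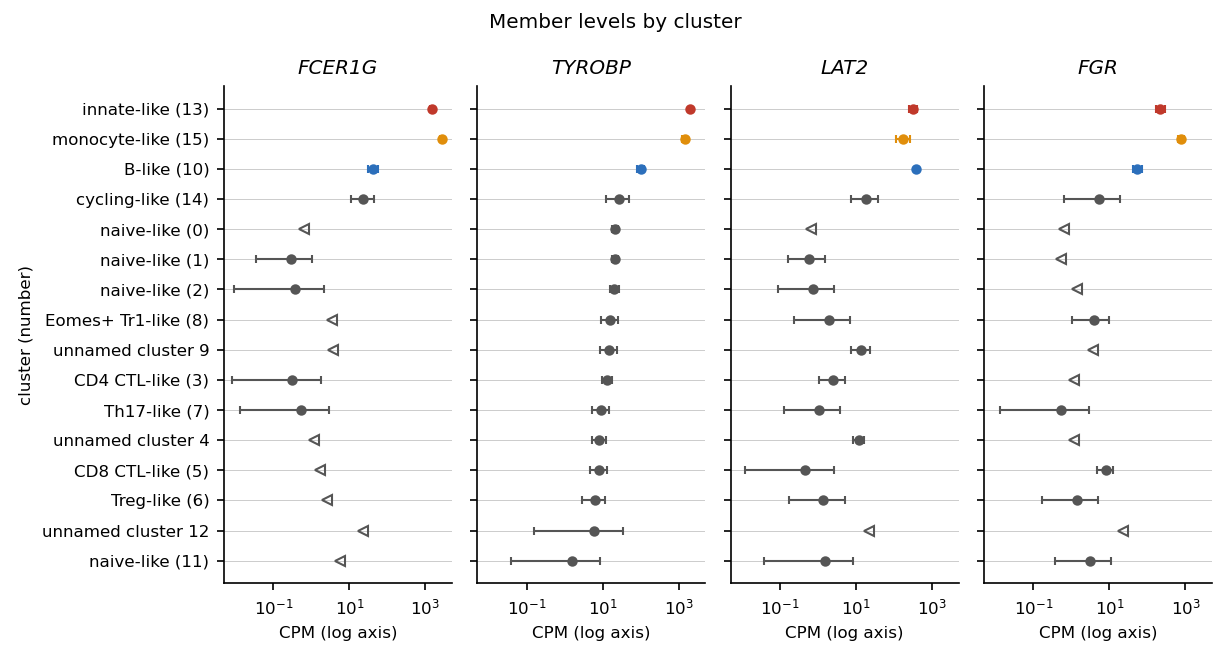
Level of each gene (CPM of summed UMIs, log axis) in each named class and unnamed cluster, with exact 95% Poisson intervals. FCER1G and FGR peak in monocyte-like cells, TYROBP in innate-like cells and LAT2 in B-like cells. TYROBP is at 21.4, 21.2 and 20.2 CPM in naive-like clusters 0, 1 and 2. In naive-like cluster 11, TYROBP and LAT2 are at 1.52 CPM, with 1 UMI each, and FGR at 3.04 CPM, with 2 UMIs.

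Over the 16 clusters, on log2(CPM + 5), FCER1G ran closest to ENSMFAG00000043175 (Pearson's r of 0.982), TYROBP (0.967) and FGR (0.965). TYROBP ran closest to FCER1G, FGR reached its largest r with LITAF (0.974), and LAT2 ran closest to SYK (0.936). LAT2 had an r of 0.858 with FCER1G, 0.849 with TYROBP and 0.857 with FGR. The clusters share 1 library, and a few clusters with high levels set these values, which are a description.

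Within single cells the 2 adaptors went together in 1 direction. In thinned cells, 94.3% of the cells with FCER1G also had TYROBP (66 of 70, interval 86% to 98.4%), whereas 21.8% of the cells with TYROBP also had FCER1G (66 of 303). Without thinning the shares were 91.2% (73 of 80) and 17.1%. In thinned cells, FGR was found in 51.4% and LAT2 in 50% of FCER1G cells. The reverse shares differed by gene: 57.1% of FGR cells had FCER1G and 65.1% had TYROBP, whereas 26.1% of LAT2 cells had TYROBP. Of the 8830 cells, 8208 had none of the 4 genes, 509 had 1, 42 had 2, 29 had 3 and 42 had all 4. Of the 42 cells with all 4, 25 were CD3-poor and 12 were CD3-rich.

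**Figure D3:**
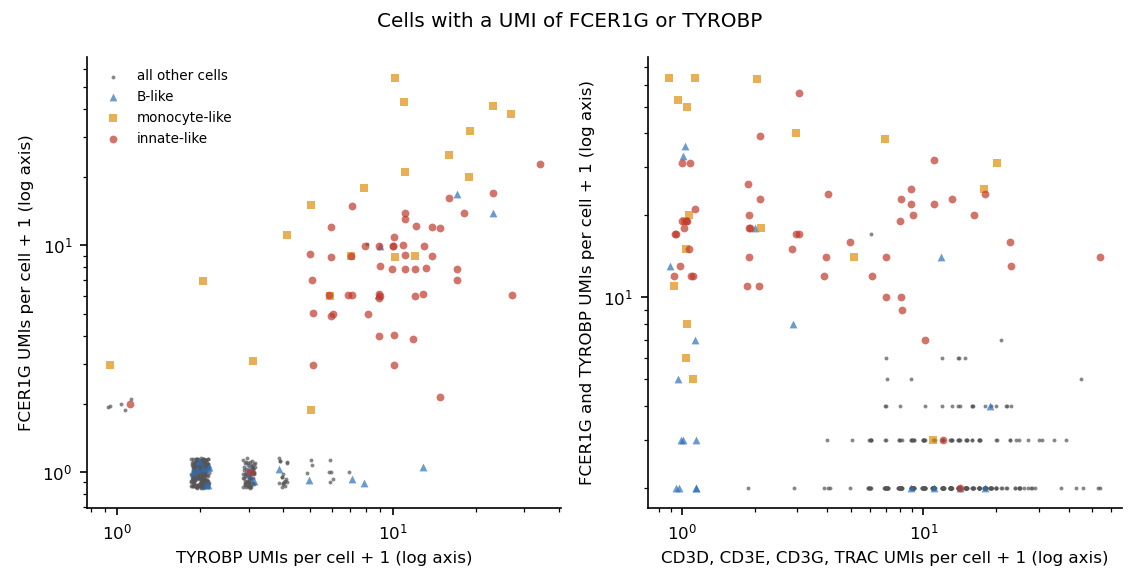
UMIs of FCER1G against UMIs of TYROBP in each cell with at least 1 UMI of either, for innate-like, monocyte-like, B-like and all other cells. Innate-like and monocyte-like cells spread upward along both axes, with up to 54 FCER1G UMIs in a monocyte-like cell and up to 33 TYROBP UMIs in an innate-like cell. All other cells, naive-like ones included, sit at 1 or few TYROBP UMIs with almost no FCER1G, apart from 1 cell with 9 FCER1G and 7 TYROBP UMIs.

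In all, 73 cells had both adaptors: 50 innate-like, 18 monocyte-like, 4 B-like and 1 cycling-like cell. By T cell receptor RNA, 39 of them were CD3-poor and 24 CD3-rich. The CD3-poor carriers had more FCER1G (log2 ratio 1.15, interval 0.90 to 1.40), TYROBP (0.38), LAT2 (0.85) and FGR (1.16) than the CD3-rich carriers. IRF8, a transcription factor of myeloid and B cells, had a log2 ratio of 4.87, and CFD, complement factor D, of 2.20. IL7R, the interleukin 7 receptor of T cells, was on the other side at -4.93, as was LTB, lymphotoxin beta, at -2.96. The monocyte markers summed to 9893 CPM in CD3-poor and 3459 CPM in CD3-rich carriers, and their part in the ratios was measured by leaving out the B-like and monocyte-like clusters. This left 23 CD3-poor carriers and log2 ratios of 1.06 for FCER1G, 0.47 for TYROBP, 0.82 for LAT2 and 0.77 for FGR (-0.11 to 1.66). The leading genes then became TRGC2, a T cell receptor gamma constant gene, at 1.58, and GNLY, granulysin, at 1.34, with LTB at -3.05 and FOS at -1.51.

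The innate-like cells themselves ranged from 0 to 53 CD3 and TRAC UMIs, and the members were present throughout. Among them, 23 were CD3-poor, 8 had 2 to 4 UMIs and 23 were CD3-rich. FCER1G was at 2099 CPM in the CD3-poor, 2173 in the middle and 871 (719 to 1045) in the CD3-rich innate-like cells. TYROBP was at 2369, 2613 and 1545 CPM, LAT2 at 389, 499 and 219.6, and FGR at 292, 206 and 174. The value of each member was thus lowest in the CD3-rich cells. Against the CD3-poor cells the intervals were apart for FCER1G and TYROBP. They overlapped for LAT2 (147 to 315 against 273 to 539) and FGR (110.4 to 261 against 192 to 425). In the CD3-rich innate-like cells FCER1G made up 36.1% of the UMIs of both adaptors (30.8 to 41.6) against 47% (42.1 to 51.9) in the CD3-poor ones.

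The same cells differed in other measures. The median UMIs per cell were 3836, 3617.5 and 6017 in the CD3-poor, middle and CD3-rich innate-like cells, and the median doublet scores were 0.067, 0.068 and 0.172. The CD3-rich cells alone had CD4 RNA, at 60.6 CPM, and 2 of 10 monocyte markers with 6 UMIs in all, whereas all 10 monocyte markers were at 0 in the CD3-poor and middle cells. The 8 B cell markers had 5, 3 and 14 UMIs, with PAX5, CD22 and FCRLA at 0 in each set. Of the 6 measured NK markers, 5 were above 0 in each set, with NCAM1 at 0, and they summed to 930.3, 910.3 and 432 CPM. TRGC2, the 1 measured constant gene of the gamma delta T cell list, was at 465, 411 and 174 CPM. The part of doublets in the CD3-rich innate-like cells was not tested.

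Of the listed receptors, several NK receptors were measured in the innate-like cells. KLRD1 (CD94), the partner chain of the NKG2 receptors, was at 832 CPM there, NCR3 (NKp30) at 209, NCR1 (NKp46) at 139, KLRC1 (NKG2A) at 135 and KIR2DL4 at 27.1. NCR1 and KIR2DL4 are known to pair with FCER1G and NCR3 with FCER1G or CD247, whereas KLRC1 is inhibitory. In monocyte-like cells TREM1, which pairs with TYROBP, was at 39.6 CPM and TREM2, which does so too, at 23.7. CLEC7A, which carries a motif of its own, was at 142 CPM. Of 28 listed receptors, 19 were matched by symbol, and those without a match, FCGR3 and KLRC2 among them, were not analysed here. In CD3-poor against CD3-rich cells 4 of the listed receptors had 50 or more UMIs, of which NCR3 (log2 ratio 1.15), KLRC1 (3.61) and KLRD1 (2.43) were at least 2-fold higher, beside 8.72% of all genes.

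HCST encodes DAP10, an adaptor without an ITAM that serves KLRK1 (NKG2D), and it had another distribution than TYROBP. HCST was at 1222 CPM in CD4 CTL-like, 1153 in innate-like, 929 in CD8 CTL-like, 618 in Eomes+ Tr1-like and 135 in naive-like cells. TYROBP made up 90.5% of the UMIs of both in monocyte-like, 63.2% in innate-like and 31.6% in B-like cells, but 1.07% in CD4 CTL-like and 0.847% in CD8 CTL-like cells. The innate-like cells were thus separated from both CTL-like classes by TYROBP, whereas their HCST level lay between the levels of these classes. CD247, the ITAM chain of the T cell receptor that also serves NK receptors, was at 781 CPM in innate-like and 537 in naive-like cells, and FCER1G made up 65.5% of FCER1G plus CD247 UMIs in innate-like, 95.1% in monocyte-like and 0.035% in naive-like cells. Shares of this kind compare 1 pair of genes between classes and do not rank genes of unequal length.

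The kinases set the innate-like cells apart from monocyte-like and B-like cells. The first step is taken by Src-family kinases. LCK, the T cell kinase, was at 507 CPM in innate-like, 681 in CD4 CTL-like and 67.8 in B-like cells. LYN was at 127 CPM in monocyte-like, 106 in B-like and 7.74 in innate-like cells, and BLK was at 175 CPM in B-like cells and at 0 UMIs in the other 2. Innate-like cells thus had FGR and LCK but little LYN and no BLK UMI. FGR made up 84.5% of the UMIs of FGR and LCK in monocyte-like, 44.3% in B-like, 30.3% in innate-like and 1.5% in CD8 CTL-like cells.

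The second step is taken by SYK or ZAP70. SYK was at 398 CPM in B-like, 166 in monocyte-like, 108 in innate-like and 0.751 in naive-like cells. ZAP70 was at 449 CPM in innate-like, 399.8 in Eomes+ Tr1-like, 191 in naive-like and 39.9 in B-like cells. SYK thus made up 90.9% of the UMIs of both in B-like, 77.8% in monocyte-like, 19.4% in innate-like (13.3 to 26.9) and 0.391% in naive-like cells. By this share, innate-like cells lay between the naive-like cells on one side and the B-like and monocyte-like cells on the other, with both kinases present. Their ZAP70 level was above that of both the naive-like and the B-like cells.

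The scaffolds followed the same order. LAT, the T cell scaffold, was at 799 CPM in CD4 CTL-like, 634 in naive-like, 364 in innate-like and 122 in B-like cells. LAT2 made up 75.9% of the UMIs of LAT2 and LAT in B-like, 66.7% in monocyte-like, 46.6% in innate-like (39.1 to 54.2), 2.85% in cycling-like and 0.069% in naive-like cells. Downstream, PLCG2, a phospholipase C, was at 112 CPM in B-like and 38.7 in innate-like cells. BTK, the kinase that activates it in B cells, was at 109.7 CPM in B-like, 31.7 in monocyte-like and 0 in innate-like cells.

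**Figure D4:**
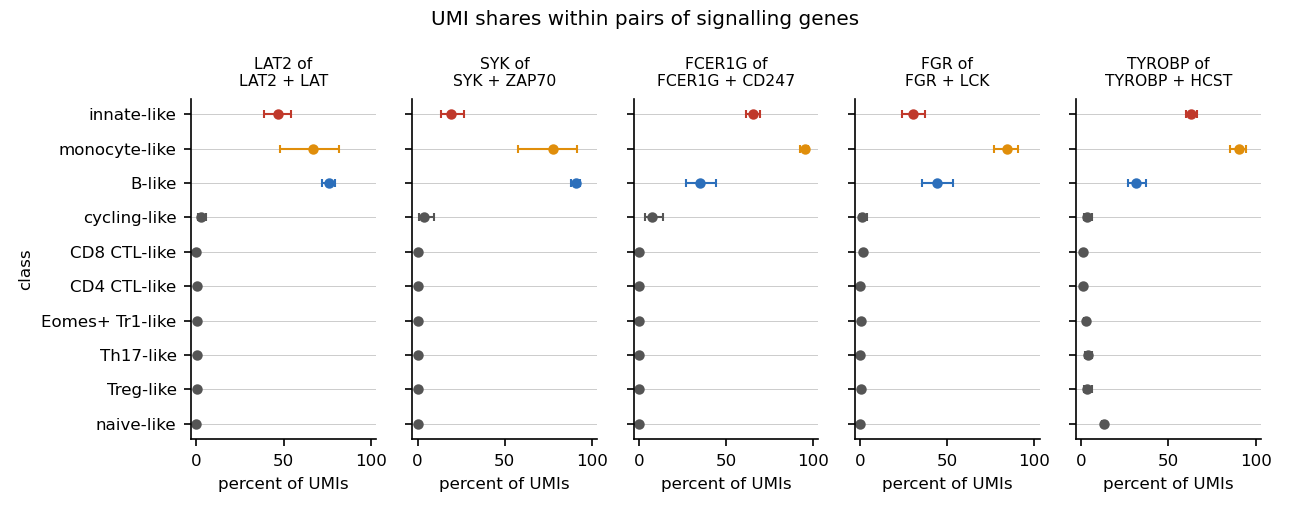
Share of UMIs (percent) that the first gene of a pair took in each class, with exact 95% binomial intervals, for LAT2 of LAT2 and LAT, SYK of SYK and ZAP70, FCER1G of FCER1G and CD247, FGR of FGR and LCK, and TYROBP of TYROBP and HCST. Innate-like cells lie between the monocyte-like and the naive-like cells in all 5 pairs, from 19.4% for SYK to 65.5% for FCER1G.

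Across the pathway, CD3-poor and CD3-rich cells differed in both directions. Among Src-family kinases, BLK (log2 ratio 6.33) and LYN (5.42) were at least 2-fold higher in CD3-poor cells and LCK (-1.77) and FYN (-1.46) at least 2-fold lower. SYK was higher (6.37) and ZAP70 lower (-1.32). Of 11 tested scaffolds other than LAT2, 2 were higher, BLNK (5.80) and GRB2 (1.30), and 6 lower, LAT (-2.24) among them. Among effectors, BTK (7.02), PLCG2 (4.70) and VAV3 (2.15) were higher and PLCG1 (-1.22) was lower. Of the signalling chains CD79A and CD79B were higher and CD247 lower (-1.54), with HCST at -0.57. Of 34 partners tested, 12 were higher and 12 lower, or 35.3% each, against 8.72% and 5.27% of all genes, and 115 of the 235 CD3-poor cells were B-like, a class with BLK at 175, BTK at 109.7 and CD79A at 1061 CPM. Without the B-like and monocyte-like clusters SYK stayed at 6.70, whereas LYN had 0 UMIs in the CD3-poor cells, ZAP70 moved to 0.54 and CD247 to 0.30.

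The second question was how the genes differed between tag compartments. CD4loCD8hi cells (418) had more of all 4 than CD4hiCD8lo cells (5758), and CD4hiCD8hi cells (2543) lay between them for 3 of the 4. FCER1G was at 9.77 CPM in CD4hiCD8lo, 28.3 in CD4hiCD8hi, 175 in CD4loCD8hi and 11.1 in CD4loCD8lo cells. TYROBP was at 21.7, 41.3, 222 and 93 CPM in the same order, and FGR at 3, 8.7, 33.7 and 64.2. LAT2 was at 10.9, 10.6 and 54.5 CPM and reached 354 CPM in the 111 CD4loCD8lo cells, where B-like cells held 96.2% of its UMIs. The 111 CD4loCD8lo cells were thus highest for LAT2 and FGR, whereas CD4loCD8hi cells were highest for FCER1G and TYROBP.

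The log2 ratio of CD4loCD8hi to CD4hiCD8lo cells was 4.16 for FCER1G (3.89 to 4.44), 3.36 for TYROBP (3.15 to 3.57), 2.32 for LAT2 (1.94 to 2.69) and 3.49 for FGR (2.92 to 4.06). All 4 members were thus at least 2-fold higher, beside 5.1% of all genes higher and 4.97% lower. With both tag limits divided by 1.5 the LAT2 ratio was 0.94 (0.27 to 1.55) and no longer reached 2-fold. From CD4hiCD8lo to CD4hiCD8hi cells it was 1.54 for FCER1G, 0.93 for TYROBP, -0.05 for LAT2 (-0.39 to 0.29) and 1.54 for FGR. Different classes carried the members in the compartments. In CD4loCD8hi cells, innate-like cells held 89.1% of FCER1G, 86.2% of TYROBP, 69.7% of LAT2 and 65.5% of FGR UMIs. In CD4hiCD8lo cells, monocyte-like cells held 89.4% of FCER1G and 60% of FGR UMIs, naive-like cells 68.1% of TYROBP and B-like cells 78.5% of LAT2 UMIs. Of the 54 innate-like cells, 34 were CD4loCD8hi, 18 CD4hiCD8hi, 1 CD4hiCD8lo and 1 CD4loCD8lo.

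**Figure D5:**
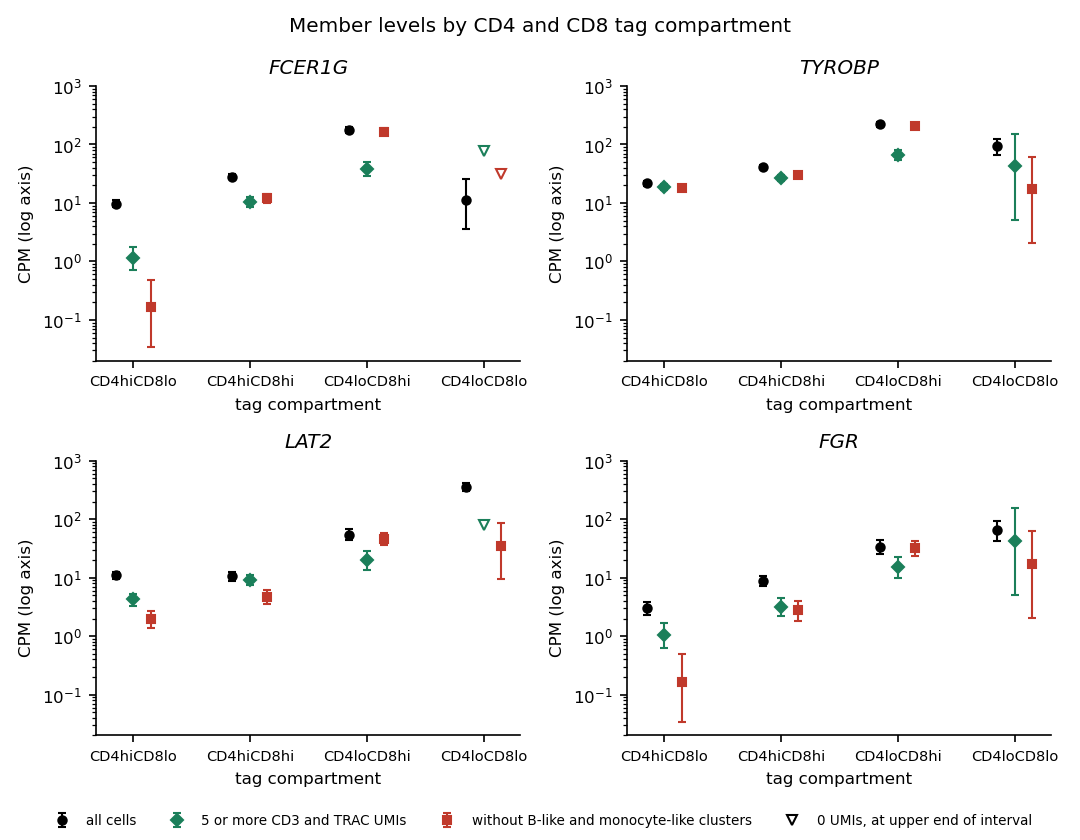
Level of each gene (CPM of summed UMIs, log axis) in the 4 tag compartments for all cells, for cells with 5 or more CD3 and TRAC UMIs, and for cells outside the B-like and monocyte-like clusters, with exact 95% Poisson intervals. FCER1G climbs from 9.77 to 175 CPM between CD4hiCD8lo and CD4loCD8hi cells, and LAT2 is highest in CD4loCD8lo cells at 354 CPM.

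Markers of other cells differed between the compartments as well. The monocyte markers summed to 8.58 CPM in CD4loCD8hi cells, with S100A8, S100A9, CSF1R and VCAN at 0, to 88.7 in CD4hiCD8lo and to 139 in CD4hiCD8hi cells. The B cell markers summed to 212, 156 and 97.9 CPM in that order, and to 4945 in CD4loCD8lo cells, which also had 9960.0 CPM of erythroid markers. The NK markers summed to 181, 6.49 and 27.1 CPM, with NCAM1 at 0 in CD4loCD8hi cells. Without the B-like and monocyte-like clusters, FCER1G was at 0.167 CPM in CD4hiCD8lo, 12 in CD4hiCD8hi and 166 in CD4loCD8hi cells, FGR at 0.167, 2.75 and 31.6, LAT2 at 1.95, 4.67 and 45.5, and TYROBP at 17.9, 30.5 and 209.8.

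Among CD3-rich cells all 4 members were again higher in CD4loCD8hi than in CD4hiCD8lo cells, and CD4hiCD8hi cells lay between them for all 4, LAT2 included. FCER1G was at 1.16 CPM in CD4hiCD8lo, 10.5 in CD4hiCD8hi and 38 in CD4loCD8hi cells with 5 or more CD3 and TRAC UMIs. TYROBP was at 18.7, 27.1 and 65.9 CPM, LAT2 at 4.24, 9.14 and 20, and FGR at 1.05, 3.2 and 15.3. Of the 203 LAT2 UMIs in CD3-rich cells of all compartments, 98 lay in 42 B-like cells. Their median depth was 9359.5 UMIs and their median doublet score 0.181, against 3185 and 0.0997 over all CD3-rich cells. The part of doublets in the CD3-rich B-like cells was not tested. The log2 ratio of CD4loCD8hi to CD4hiCD8lo cells was 5.03 for FCER1G (4.27 to 5.84), 1.82 for TYROBP (1.48 to 2.15), 2.24 for LAT2 (1.57 to 2.87) and 3.87 for FGR (2.92 to 4.85), where 5.06% of all genes were at least 2-fold higher and 4.55% lower. Leaving out the innate-like cluster brought it to 2.56 for FCER1G (1.22 to 3.79), 1.09 for LAT2 (0.11 to 1.95), 3.28 for FGR (2.15 to 4.39) and -0.43 for TYROBP (-1.16 to 0.22). The FCER1G value then rested on 9 UMIs of 1 cycling-like cell, so outside the innate-like cluster no other CD3-rich CD4loCD8hi cell had FCER1G. For TYROBP the ratio of CD4hiCD8hi to CD4hiCD8lo cells also went from 0.54 to -0.17 (-0.45 to 0.10), so no difference was detectable in either direction without the innate-like cells.

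Some partners also differed between the compartments. Between CD4loCD8hi and CD4hiCD8lo cells, 7 of 36 partners tested (19.4%) were at least 2-fold higher and 0 lower, against 5.1% and 4.97% of all genes: the kinases SYK (1.45) and LYN (1.17), the phosphatase PTPN22, the adaptor SH2D1A (1.02), PLCG2 (1.58), VAV3 (1.81) and HCST (1.80). All 3 of the listed receptors with 50 or more UMIs, KLRD1 (5.79), KLRK1 (3.64) and NCR3 (3.52), were higher. LCK (0.18), ZAP70 (0.69), LAT (-0.31) and CD247 (-0.45) were within 2-fold. In CD3-rich cells 7 of 31 (22.6%) were higher and 0 lower, against 5.06% and 4.55%. These were SYK (2.67), HCST (1.71), VAV3 (1.91), PTPN22 (1.59), PTPN6 (1.02), SH2D1A (1.01) and CD79B (2.17). Of the 129 SYK UMIs in CD3-rich cells of all compartments, 13 lay outside the innate-like, monocyte-like and B-like clusters and 10 in the innate-like one. Of 3 tested B cell markers, MS4A1 (2.30) and CD79B were at least 2-fold higher, and CD79A (0.54) was not. The part of B-like cells in these ratios was not tested.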

How the data were processed

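UMI counts per gene and tag were deposited as a 10x matrix, made by the authors with Cell Ranger 3.1.0 (STAR 2.5.1b) on Macaca_fascicularis_5.0, and were used as raw counts. The authors' cell filter in Seurat 3.1.3 was repeated (200 to 4000 genes, at most 20% mitochondrial UMIs), which kept 8830 of 8953 barcodes, more cells than the study gives. Totals were 31677119 gene, 4413283 CD4 tag and 4685108 CD8 tag UMIs.

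The 4 genes and all gene lists were chosen with earlier results of these data known. UMIs were summed per group and divided by the group's total (CPM). Intervals (95%) were exact Poisson for CPM, exact Clopper-Pearson for shares and from the exact binomial split for log2 ratios. Genes with 50 or more UMIs over both groups were compared, with 2-fold and an interval without 0 as the threshold. A count of 0 allows up to 3 counts. Cells were thinned to 2200 UMIs where shares were compared. The code was tested on simulated data.

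Clusters came from Seurat 5.3.0 in R 4.3.3 (2000 variable genes without the 4 genes, 20 principal components, 20 neighbours, resolution 0.8). A cluster was named where 3 or more markers of a list reached 1.5 times their median level in the clusters. Clusters whose second helper or regulatory list reached 0.75 of the first, or that were shallow, stayed unnamed, and these naming limits were set after the clusters were seen. A difference from the study may come from these rebuilt names. Scrublet, run through scanpy 1.11.5 with an expected doublet rate of 6%, called 0 doublets (threshold 0.675). Other work used Python 3.11.15, numpy 2.4.6 and scipy 1.17.1. Named genes were the 4 genes, the genes of the lists, the 5 genes most like each of the 4 over clusters, and the 10 largest log2 ratios in each direction between CD3-poor and CD3-rich carriers. Alternatives changed the cell filter, the gene set and threshold for T cell receptor RNA, the tag limits, thinning, the minimum count, the fold, the clustering and the classes left out. No sequences of the genes were used here. Results on some genes of the lists are not reported here.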

Additional observations from a re-analysis of the deposited data

Results flagged for a closer look

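In the 123 barcodes outside the limits on genes and mitochondrial RNA, LAT2 had 22 UMIs and FGR had 5, both above the 3 counts that a count of 0 allows. For LAT2, 21 of the UMIs lay in 4 barcodes with more than 4000 genes, with 12 in the highest barcode, and 1 in a barcode over the mitochondrial limit. For FGR, all 5 UMIs lay in 2 barcodes with more than 4000 genes. FCER1G and TYROBP had 3 UMIs each there.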

How the results depend on the processing

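Of 274 alternative values, 203 stayed within the interval of the main value or, for counts and r, within a set limit of it. A ratio whose main interval held 0 could change sign and still be among these. Another 69 moved further, and 2 that had been at an interval above 0 fell below 0. Values are log2 ratios. These 2 were TYROBP in CD3-rich cells without the innate-like cluster, at -0.43 (-1.16 to 0.22) for CD4loCD8hi and -0.17 (-0.45 to 0.10) for CD4hiCD8hi against CD4hiCD8lo cells, and both intervals then included 0. Leaving out clusters was chosen after seeing the data, except for the tag ratios over all cells without the B-like and monocyte-like clusters.

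For CD3-poor against CD3-rich cells, FCER1G was 6.98 with groups set after thinning, 7.07 with CD3 genes only and 7.64 without B-like and monocyte-like cells. TYROBP was 4.14 over all barcodes, 4.12 by the mean over cells, 4.65 with CD3 genes only and 5.45 without B-like and monocyte-like cells. LAT2 was 6.19 by the mean over cells and 6.34 after thinning.

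For CD4loCD8hi against CD4hiCD8lo cells, the mean over cells gave 4.92 for FCER1G, 2.87 for LAT2 and 4.22 for FGR. Tag limits multiplied by 1.5 gave 4.57, 2.99 and 4.28 for the same genes, and limits divided by 1.5 gave 3.58, 0.94 and 2.64, with 2.5 for TYROBP, so that LAT2 no longer reached 2-fold. Without B-like and monocyte-like cells, FCER1G was 9.96 (8.39 to 12.24) and FGR 7.56 (5.93 to 9.89), both against 3 UMIs, and LAT2 was 4.54. In CD3-rich cells, FCER1G was 6.35 and FGR 4.94 by the mean over cells, and FCER1G was 9.11 (6.51 to 14.46, against 1 UMI) and FGR 5.24 with limits divided by 1.5. With 10 or more CD3 and TRAC UMIs, FCER1G was 3.14 and TYROBP 1.27. Without the innate-like cluster, FCER1G was 2.56 and LAT2 1.09. Without B-like and monocyte-like cells, FCER1G was 7.79, LAT2 3.20 and FGR 6.48.

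For CD4hiCD8hi against CD4hiCD8lo cells, the mean over cells gave 1.85 for FCER1G and 0.68 for TYROBP. Multiplied limits gave 2.35 for FCER1G, 1.44 for TYROBP, 0.98 for LAT2 and 2.80 for FGR, and divided limits gave -0.57 for LAT2 and 0.80 for FGR. The LAT2 ratio, -0.05 as reported, thus took either sign with the tag limits. Without B-like and monocyte-like cells, FCER1G was 6.16, LAT2 1.26 and FGR 4.04. In CD3-rich cells, the mean over cells gave 4.09 for FCER1G and 0.22 for TYROBP, multiplied limits gave 4.21 for FCER1G, 1.17 for TYROBP and 2.75 for FGR, and divided limits gave 6.76 for FCER1G. With 10 or more CD3 and TRAC UMIs, FCER1G was 1.92 and TYROBP 0.24. Without the innate-like cluster, FCER1G was 2.14. Without B-like and monocyte-like cells, FCER1G was 5.20 and FGR 3.62.

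In carriers of both adaptors, FCER1G was 1.42 with 10 or more CD3 and TRAC UMIs, and 23 CD3-poor carriers were left without B-like and monocyte-like cells. Without thinning, 17.1% of TYROBP cells had FCER1G. At 4-fold, 2 partners were lower in CD3-poor cells, 0 were higher in CD4loCD8hi cells and 2 in CD3-rich CD4loCD8hi cells, and without a minimum count 13 were higher in the last. Apart from the sets of fewer cells or genes that an alternative leaves, the causes were not tested. No paired analysis was possible because there was 1 animal and 1 library pair, whose 2 libraries hold the same cells. Counting error alone limits the ratios that rest on few UMIs, and the spread between animals was not measured.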
